A study of Mus musculus with 12 samples.

Results

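The genes described here encode the proteins of the mitochondrial ribosome. They were chosen by symbol, as every gene in the authors' comparison tables whose symbol begins with Mrpl or Mrps and a number, pseudogenes left out. The rule gave 75 of the 55335 genes counted, 50 of the large subunit and 25 of the small subunit. Mrps18a and Mrps30 were placed with the large subunit, where their proteins sit despite the names. Mrpl53, Mrps10 and Mrps36 have matching symbols but are not in the comparison tables, so they were left out. Of these Mrps36 had 29 and 28 RNA-seq reads and 34 and 25 footprint reads in WT and KO, and the others had fewer in RNA-seq.

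Mitochondria carry their own ribosomes, which translate the few proteins encoded in the mitochondrial genome, all of them subunits of the respiratory chain or ATP synthase. Every protein of these ribosomes is encoded in the nucleus, translated by cytosolic ribosomes and imported, and some have bacterial counterparts while others are particular to mitochondria. Thymocytes, the developing T cells of the thymus, pass through stages of rapid division in which cells build new mitochondria.

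Thymocytes from 6-week-old mice kept under specific pathogen free conditions were analysed by RNA-seq and by footprinting of ribosomes, which sequences the mRNA fragments that ribosomes protect from nuclease. The 2 genotypes were WT and miR-181a/b-1 KO, the latter lacking the gene pair for miR-181a-1 and miR-181b-1, with 3 libraries per genotype and assay. Thymi were pressed through a 70 µm strainer, cells of both genotypes went into buffer with 0.1 mg/ml cycloheximide, which arrests cytosolic ribosomes, and an Illumina TruSeq Ribo Profile kit was used for both assays. The labels do not say which RNA-seq and footprint libraries share a mouse, so KO was compared with WT within each assay. Where a fit joins the assays below, their libraries are taken as unrelated unless a block is named.

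The 5p mature microRNAs encoded by the deleted pair are shown because deletion of that gene pair defines the KO. Both 5p strands share the seed, bases 2 to 8, in capitals. They lie on the plus strand of GRCm38.p6, miR-181a-5p at chr1:137966468-137966490 and miR-181b-5p at chr1:137966650-137966673, and the sequences are from RefSeq.
mmu-miR-181a-5p: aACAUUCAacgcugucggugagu
mmu-miR-181b-5p: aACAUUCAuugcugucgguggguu

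Footprint libraries held 4069968 to 17859770 reads in genes and RNA-seq libraries 4479182 to 8180286. The Mir181a-1 row had 6803 footprint reads in WT and 25 in KO, a log2 fold change of -7.47 (edgeR FDR 2.24e-05), but 57 and 67 reads in RNA-seq (edgeR FDR 0.756). The RNA-seq libraries are therefore taken by their labels, which that row does not check. The deposited counts, which the authors name as adjusted, hold a pattern across replicate numbers. Libraries of WT and KO with the same number deviated from their group means in opposite directions, with correlations of -0.93 to -0.91 over all genes tested in RNA and of -0.92 to -0.89 in footprints. Over the mitochondrial ribosomal genes the same correlations were all -0.99 in RNA, while differently numbered pairs gave 0.46 to 0.57. The spread within a group may thus not measure the spread between mice. The SDs, SEs and p-values below carry that limit, as does every statement that libraries of the genotypes do or do not overlap. The p-values without a replicate block may be too small, and a fit that takes the replicate number as a block is itself hard to read with such counts. Which fit has the better error was not tested, so each call on a mitochondrial ribosomal gene is given from both.

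All 75 genes passed the low-count filter in RNA, among 13652 genes tested. In footprints 74 of 75 passed, among 13509, because Mrpl23, which had 209 and 155 RNA-seq reads in WT and KO, had only 53 footprint reads over 6 libraries. Its pseudogene Mrpl23-ps1 had 50 footprint reads in WT and 29 in KO, and reads that align to both copies would be assigned to neither, so the level of Mrpl23 is uncertain. Reads per gene over the 6 libraries ranged from 118 to 4737 in RNA-seq, with a median of 655, and the median in footprints was 2418. Levels below are CPM, a gene's reads divided by its library's total in genes after TMM scaling. Because CPM is not divided by transcript length, no gene's level is compared with another gene's.

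Summed over the 75 genes, the level was lower in KO in both assays. In RNA-seq the WT libraries summed to 1623, 1626 and 1640 CPM and the KO libraries to 1547, 1544 and 1520 CPM. No KO library reached the lowest WT library, and the mean fell by 5.70%, from 1630 ± 9.08 to 1537 ± 15.2 CPM (SD, n = 3). In footprints the sums were 2804, 2785 and 2742 CPM in WT and 2641, 2654 and 2697 CPM in KO. Here too the genotypes did not overlap, with a difference of -4.06%. Without TMM scaling, as plain shares of the reads in genes, the RNA-seq sums also did not overlap, with 1627 to 1695 CPM among WT libraries and 1456 to 1532 CPM among KO libraries. The RNA difference was then -10.5%, larger than the scaled one, and the footprint difference -4.42%. Both subunits were lower: the large subunit differed by -6.19% in RNA and -4.06% in footprints, the small subunit by -4.41% and -4.07%. No test was made of these sums, since 3 libraries against 3 allow no exact two-sided p below 0.1.

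**Figure D1:**
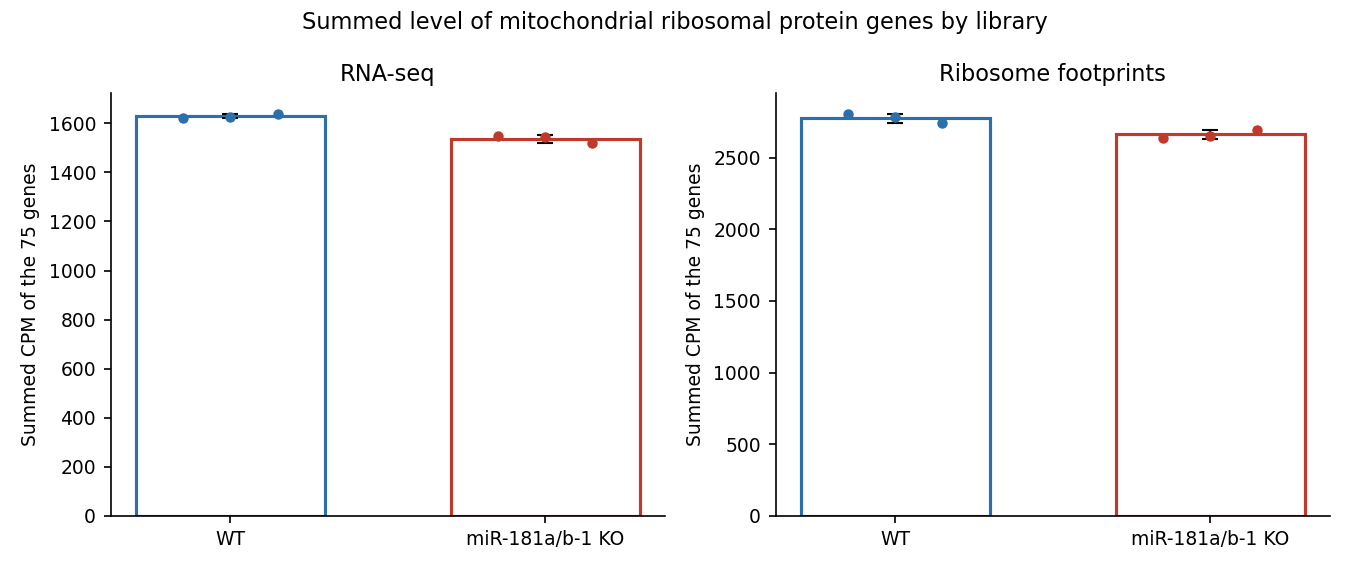
Summed CPM of the 75 mitochondrial ribosomal protein genes in each library (points), with the group mean (bar) and SD (error bar, n = 3), for RNA-seq and footprints. In both assays every KO library lies below every WT library, with differences between the means of -5.70% and -4.06%.

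The differences in sum were compared with those of related families. Summed RNA of 77 cytosolic ribosomal protein genes differed by -7.49%, without overlap of the genotypes, and their footprints by 4.36%, with overlap. Summed RNA of 86 nuclear-encoded respiratory chain genes, which include ATP synthase subunits, differed by -5.30%, with overlap of the genotypes, and their footprints by -2.01%, without overlap. Summed markers of several cell types differed as well, and their part in the result was not tested. The 9 thymocyte markers summed to 12698 to 13822 CPM in WT RNA and 11544 to 12321 in KO. The 5 thymic epithelial markers summed to 18.9 to 22.2 CPM in WT RNA and 14.2 to 17.3 in KO, the 5 erythroid markers to 69.3 to 81.5 and 42.4 to 51.8, and the 5 markers of fibroblasts and endothelium to 198 to 203 and 226 to 235. The 4 B cell markers, at 11 to 15.3 and 13.5 to 19.5 CPM, and the 5 myeloid and dendritic markers, at 56.4 to 65.0 and 55.8 to 65.2, overlapped, and no marker was at 0 over all libraries of an assay. In footprints the same lists summed in WT and KO to 20658 to 21440 and 19662 to 20501 CPM (thymocytes), 75.5 to 82.3 and 59.8 to 70.5 (epithelium), 35.5 to 67.2 and 30.5 to 65.8 (erythroid), 187 to 223 and 215 to 260 (fibroblasts and endothelium), 43.0 to 56.3 and 56.0 to 73.8 (B cells), and 183 to 217 and 182 to 220 (myeloid). In RNA edgeR called 0 of 9 thymocyte markers, Krt5 of the epithelial and Hbb-bs of the erythroid list lower and Pecam1 of the endothelial list higher. In footprints Lck, Rag1, Ptcra, Epcam and Alas2 were called lower and Cd4, Cd79b and Pecam1 higher. With the replicate block the calls of Cd4 and Cd79b held and the others were lost. In bulk thymocytes, fewer cells of a type and less RNA per cell cannot be told apart.

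In RNA, 4 of the 75 genes fell in KO and 0 rose at an edgeR false discovery rate (FDR) under 0.05, while 10 lower and 1 higher had an unadjusted p under 0.05 (14.7%, against 23.8% of all genes). They were Mrps24, Mrpl3, Mrpl10 and Mrps5, of both subunits. The 4 make up 5.33% of the genes, against 3.43% of all 13652 genes called lower and 3.48% called higher, so the share called lower is close to the background. The median log2 fold change was -0.10 for the 75 genes and -0.00 for all genes, and 52 of 75 were below 0 (69.3%, against 50.1% of all genes). The respiratory chain genes leaned alike, with a median of -0.08 and 70.5% below 0. The cytosolic ribosomal protein genes had -0.03 and 52.0%. In 17 of the 75 mitochondrial ribosomal genes every KO library lay below every WT library (22.7%, against 15.4% of all genes), and in 2, Mrpl16 and Mrps15, every KO library lay above (2.67%, against 15.5%). With the replicate block edgeR called 0 of the 75, against 0.806% of all genes, and DESeq2 also called 0, with 4 at an unadjusted p under 0.05. Without TMM scaling edgeR called 6 lower and 0 higher, adding Mrpl2 (edgeR FDR 0.0423) and Mrpl58 (edgeR FDR 0.0359). That setting moved the median of all genes by -0.07 and the share of all calls that were lower from 49.6% to 72.8%, with 5.74% of all genes then called lower.

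In footprints, 7 of 74 genes fell and 0 rose at an edgeR FDR under 0.05, with 14 lower and 3 higher at an unadjusted p under 0.05 (23.0%, against 33.1% of all genes). The 7 were Mrps24, Mrpl45, Mrpl3, Mrps7, Mrpl2, Mrpl32 and Mrpl40. They are 9.46% of the genes, against 8.34% of all 13509 genes called lower, which again is near the background, while 9.25% of all genes were called higher. The median log2 fold change was -0.07, beside -0.01 for all genes, and 46 of 74 were below 0 (62.2%, against 51.6%). The respiratory chain genes again leaned alike, with a median of -0.05 and 63.3% below 0. The cytosolic ribosomal protein genes had 0.07 and 38.0%. The KO libraries lay below all WT libraries in 18 of the 74 mitochondrial ribosomal genes (24.3%, against 19.6% of all genes) and above them in 6 (8.11%, against 18.5%). With the replicate block edgeR called 1 of the 74, Mrps24, against 3.02% of all genes, and DESeq2 called Mrps24 and Mrpl3. The authors' deposited tables listed 0 of 75 genes as significant in RNA and 2 of 74 in footprints, Mrps24 (adjusted p 0.000988) and Mrpl3 (adjusted p 0.00835). These are 0% and 2.7% of the genes, against 4.12% and 10.6% of all genes listed in the authors' deposited tables.

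**Figure D2:**
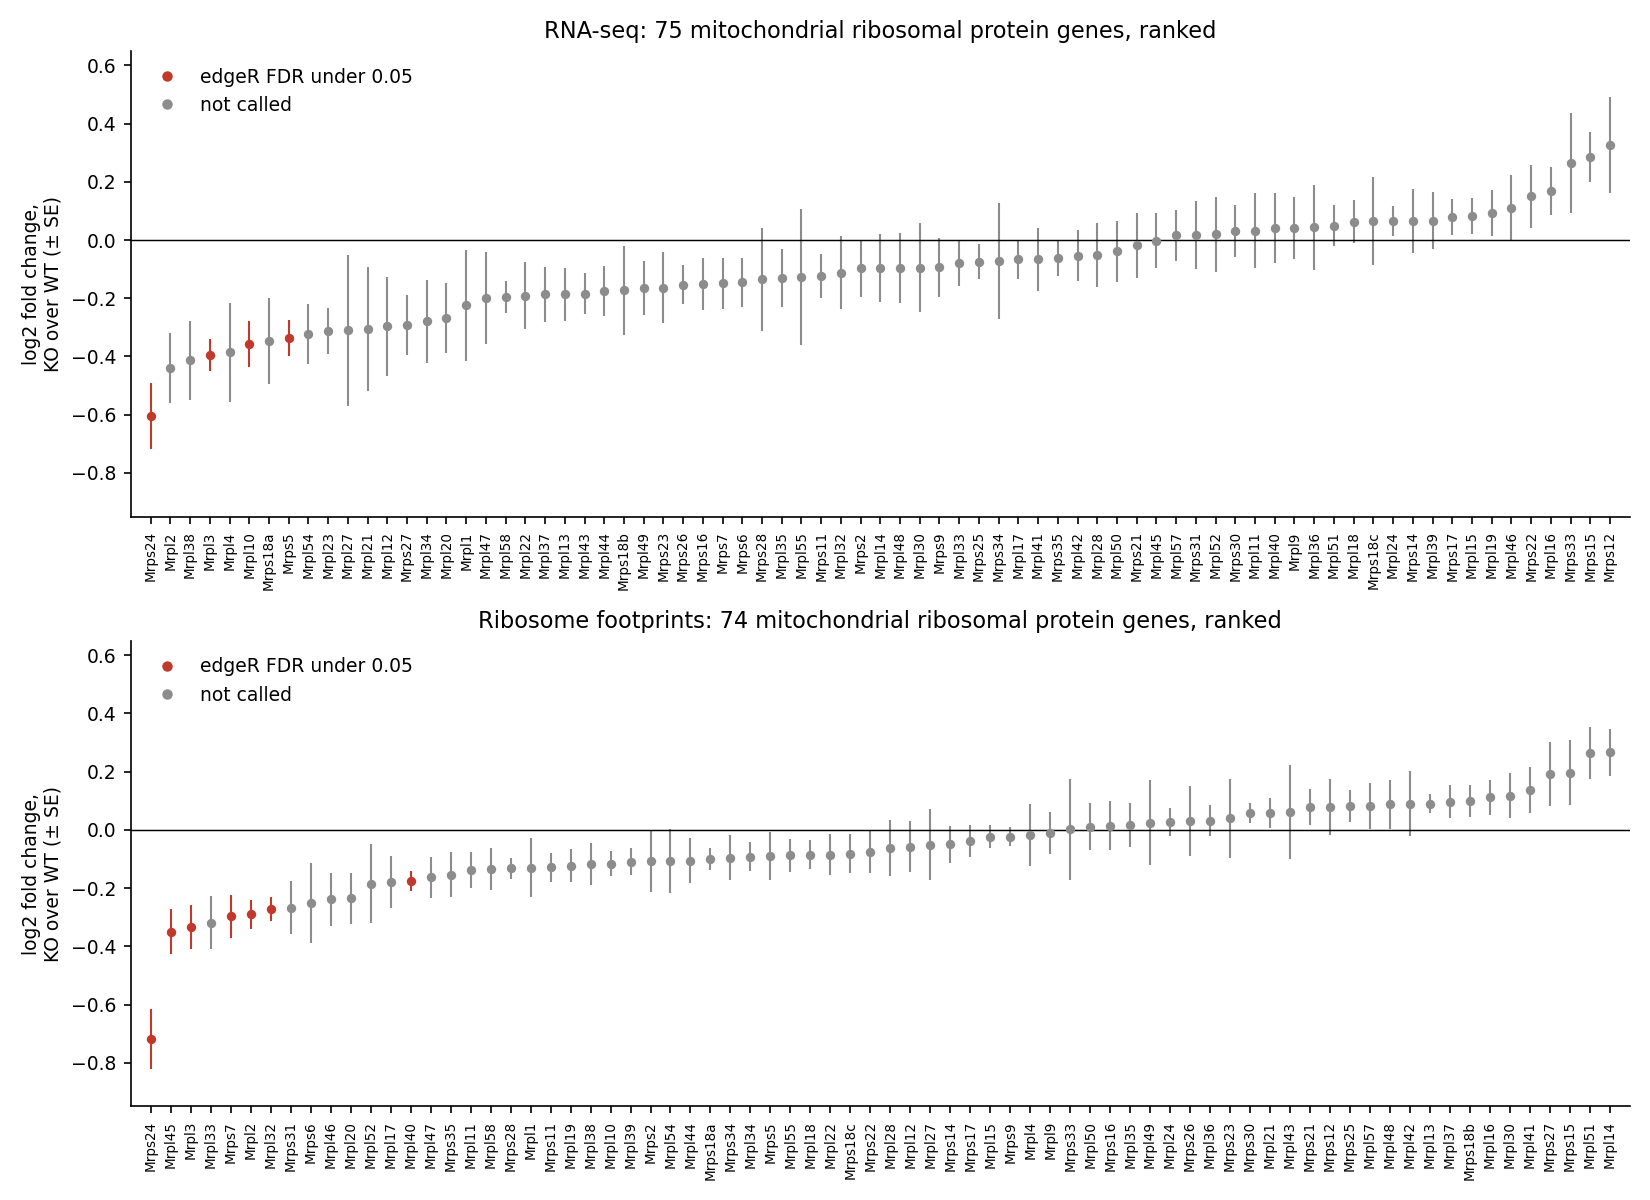
Log2 fold change of KO over WT (y axis, ± SE) for each tested mitochondrial ribosomal protein gene, ranked within RNA-seq (75 genes) and footprints (74 genes), with red points at an edgeR FDR under 0.05. Most points lie below 0 in both panels, and Mrps24 is the lowest in each.

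The small-subunit gene Mrps24 (ENSMUSG00000020477.10), the counterpart of a bacterial protein at the mRNA entry of the ribosome, had the largest fall of the family in both assays. Its RNA was 11.9, 13.1 and 14.2 CPM in the WT libraries and 9.51, 8.52 and 7.86 CPM in KO. Its footprints were 20.4, 21.5 and 17.9 CPM in WT and 12.2, 11.4 and 14.2 CPM in KO. All KO libraries were below all WT libraries in both assays. The RNA fell by 34.2% (log2 fold change -0.60, SE 0.11, edgeR FDR 0.0319) and the footprints by 39.3% (log2 fold change -0.72, SE 0.10, edgeR FDR 0.00683). The footprint call held in all 6 fits that left out 1 library, between -0.79 and -0.65, and with the replicate block (edgeR FDR 0.0458), whereas the RNA call was lost in each of the 6 and with the block (edgeR FDR 0.361).

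Among the 10 tested genes on each side of Mrps24 on its chromosome, 5 of 20 were called in footprints (25%, against 17.6% of all genes in both directions), 4 lower and 1 higher, with log2 fold changes from -1.71 to 0.67. For the other 8 called genes of the family the corresponding counts were 2 to 5 of 20. The calls were 4 lower and 0 higher around Mrpl10 and 3 lower and 0 higher around Mrpl45. Around each of the rest they were 1 lower and 1 to 4 higher. With the replicate block 2 of the 20 around Mrps24 were called, and 0 or 1 around each of the others, against 3.02% of all genes. Mrpl10 and Mrpl45 are themselves neighbours within such a window, so their values are not those of distant loci.

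Mrpl3 (ENSMUSG00000032563.16), a large-subunit protein that reaches toward the peptidyl transferase centre, was the other gene called in both assays. Its RNA was 54.7, 55.1 and 52.8 CPM in WT and 41.0, 40.5 and 42.0 CPM in KO. Its footprints were 95.5, 104 and 89.2 CPM in WT and 77.8, 71.1 and 82.7 CPM in KO. Again the genotypes did not overlap. The log2 fold changes were -0.39 in RNA (SE 0.05, edgeR FDR 0.0135) and -0.33 in footprints (SE 0.08, edgeR FDR 0.0294). Both calls were lost with the replicate block, at edgeR FDRs of 0.358 and 0.143. With 1 library left out the RNA call held in 1 of 6 fits and the footprint call in 2 of 6.

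Other proteins of the catalytic core and the stalk were examined by role. Mrpl2, which lines the peptidyl transferase region, had footprints of 30.9, 32.1 and 30.3 CPM in WT and 25.9, 24.7 and 26.3 in KO, a fall of -0.29 (SE 0.05, edgeR FDR 0.0121). Its RNA, at 11.4, 10.2 and 12.1 CPM in WT and 8.19, 9.47 and 7.61 in KO, did not overlap either, with a log2 fold change of -0.44 that was not called (SE 0.12, edgeR FDR 0.0816) except without TMM scaling. Mrpl10, at the base of the stalk that recruits translation factors, fell in RNA from 27.3, 26.9 and 24.7 CPM to 19.7, 19.9 and 21.7 (log2 fold change -0.36, SE 0.08, edgeR FDR 0.0480). Its footprints, 37.7, 37.5 and 39.1 CPM in WT and 35.4, 35.5 and 33.9 in KO, also did not overlap but were not called (-0.12, edgeR FDR 0.168). The neighbouring stalk proteins were not called: Mrpl11 had log2 fold changes of 0.03 in RNA and -0.14 in footprints, and Mrpl12 of -0.30 and -0.06. Of these 3 stalk genes 1 was called, in RNA only, where 6.91% of all genes were called in either direction. The Mrpl10 call was lost with DESeq2, with the replicate block and in all 6 fits that left out 1 library. No result about the stalk is drawn from so few genes.

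Mrpl45, Mrpl32 and Mrpl40 of the large subunit were called in footprints and not in RNA, though the interaction described below was not called for any of them. Mrpl45, which ties the ribosome to the inner membrane at the peptide exit, had 26.6, 26.8 and 30.1 CPM of footprints in WT and 22.5, 22.2 and 19.4 in KO, with no overlap (log2 fold change -0.35, SE 0.08, edgeR FDR 0.0277). Its RNA was 17.6, 17.0 and 15.3 CPM in WT and 15.7, 16.1 and 17.8 in KO, overlapping throughout (-0.00, edgeR FDR 0.994). Mrpl32, a protein cut to its mature form by a mitochondrial protease before it joins the ribosome, had footprints of 47.6, 46.2 and 45.3 CPM in WT and 37.6, 38.7 and 39.5 in KO (-0.27, SE 0.04, edgeR FDR 0.00875). In RNA Mrpl32 overlapped, at 22.9, 22.9 and 18.5 CPM against 18.6, 18.0 and 22.2 (-0.11, edgeR FDR 0.645). Mrpl40 had the smallest called change, from 59.6, 59.7 and 60.8 CPM to 53.6, 53.4 and 52.3 in footprints (-0.17, SE 0.03, edgeR FDR 0.0185), while its RNA overlapped (0.04, edgeR FDR 0.876). With 1 library left out the footprint call of Mrpl40 held in 0 of 6 fits and that of Mrpl32 in 5 of 6. Mrpl44, an RNase III relative, had -0.18 in RNA and -0.11 in footprints and was called in neither assay, and Mrpl58, a peptidyl-tRNA hydrolase built into the large subunit, had -0.19 and -0.13 (edgeR FDR 0.0924 and 0.258), with an RNA call only without TMM scaling. Mrps18a and Mrps30, the large-subunit proteins with small-subunit names, had -0.35 and 0.03 in RNA and -0.10 and 0.06 in footprints, all uncalled.

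Of the small-subunit genes other than Mrps24, Mrps5 fell in RNA and Mrps7 in footprints. Mrps5, a counterpart of a bacterial protein near the mRNA channel, had 28.9, 28.5 and 27.8 CPM of RNA in WT and 22.1, 22.5 and 22.8 in KO (log2 fold change -0.34, SE 0.06, edgeR FDR 0.0305). In footprints Mrps5 overlapped, at 27.0, 27.6 and 31.2 CPM in WT and 27.9, 27.3 and 23.6 in KO (-0.09, edgeR FDR 0.528). Mrps7, which organises the head of the subunit, had footprints of 29.7, 26.3 and 27.7 CPM in WT and 21.2, 24 and 22.8 in KO (-0.30, SE 0.07, edgeR FDR 0.0386). The RNA of Mrps7, at 17.8, 18.7 and 20.0 CPM against 18.0, 17.3 and 15.8, overlapped at a single library (-0.15, edgeR FDR 0.380). Mrps12, part of the decoding site, was not called: its RNA was 6.52, 8.79 and 8.40 CPM in WT and 11.7, 8.52 and 9.36 in KO (0.33, SE 0.16, edgeR FDR 0.289). Mrps2, Mrps18b, Mrps18c, Mrps22 and Mrps34 were not called in either assay, with log2 fold changes between -0.17 and 0.15. With the replicate block the edgeR FDRs of the 7 singly called genes, each in its called assay, were 0.209 for Mrpl45, 0.220 for Mrpl32, 0.264 for Mrpl2, 0.288 for Mrps7, 0.393 for Mrpl40, 0.558 for Mrpl10 and 0.567 for Mrps5.

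**Figure D3:**
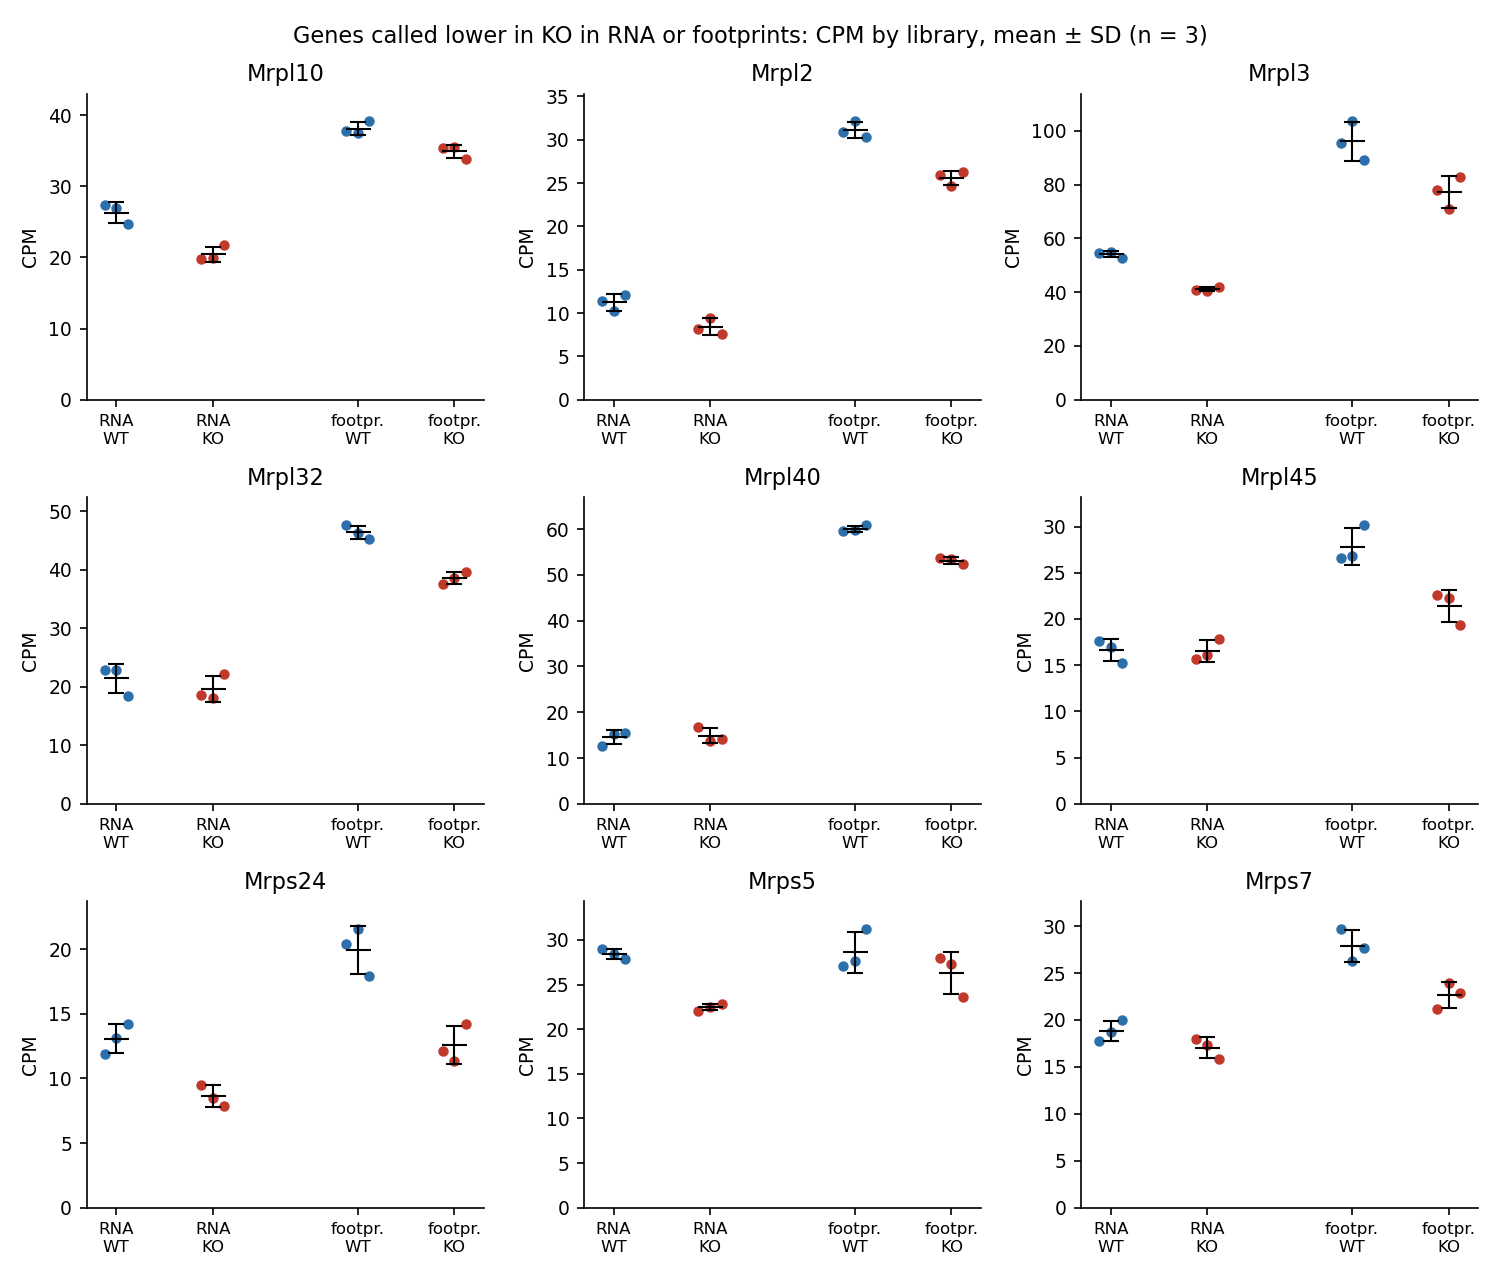
CPM in each library (points) with mean and SD (n = 3) for the 9 genes called lower in KO in RNA or footprints, WT in blue and KO in red, each panel with its own axis from 0. Mrps24 and Mrpl3 separate by genotype in both assays, while Mrpl32, Mrpl40 and Mrpl45 overlap in RNA.

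The lists of called genes in the 2 assays shared Mrps24 and Mrpl3, 2 of 4 in RNA and 2 of 7 in footprints. The same overlap over all genes was not counted, so this is no result about the family. Among uncalled genes, RNA log2 fold changes ran from -0.44 to 0.33 and footprint changes from -0.32 to 0.27. Mrpl38 had -0.41 in RNA (12.1, 14.4 and 15.2 CPM in WT and 12, 9.94 and 9.36 in KO, edgeR FDR 0.130), and Mrpl33 had -0.32 in footprints (14.4, 14.9 and 16.8 CPM in WT and 12.9, 12.4 and 10.6 in KO, edgeR FDR 0.0606). Neither overlapped between genotypes, yet neither was called.

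The largest positive changes were uncalled as well. In RNA the largest was that of Mrps12, given above, which overlapped between genotypes. Mrps15 followed with 21.6, 19.5 and 19.1 CPM of RNA in WT and 22.7, 25.3 and 25.4 in KO (0.28, edgeR FDR 0.107), with a footprint change of 0.20 (edgeR FDR 0.274). Mrpl14, at the face where the subunits meet, had footprints of 36.8, 33.5 and 31.7 CPM in WT and 37.9, 41.8 and 44.4 in KO (0.27, edgeR FDR 0.0664), beside an RNA change of -0.10. Every KO library of these 2 genes was above every WT library in the assay given. Mrpl51 (0.26, edgeR FDR 0.0930) and Mrps27 (0.19, edgeR FDR 0.283) followed in footprints, and Mrps33 (0.26, edgeR FDR 0.566) and Mrpl16 (0.17, edgeR FDR 0.487) in RNA.

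**Figure D4:**
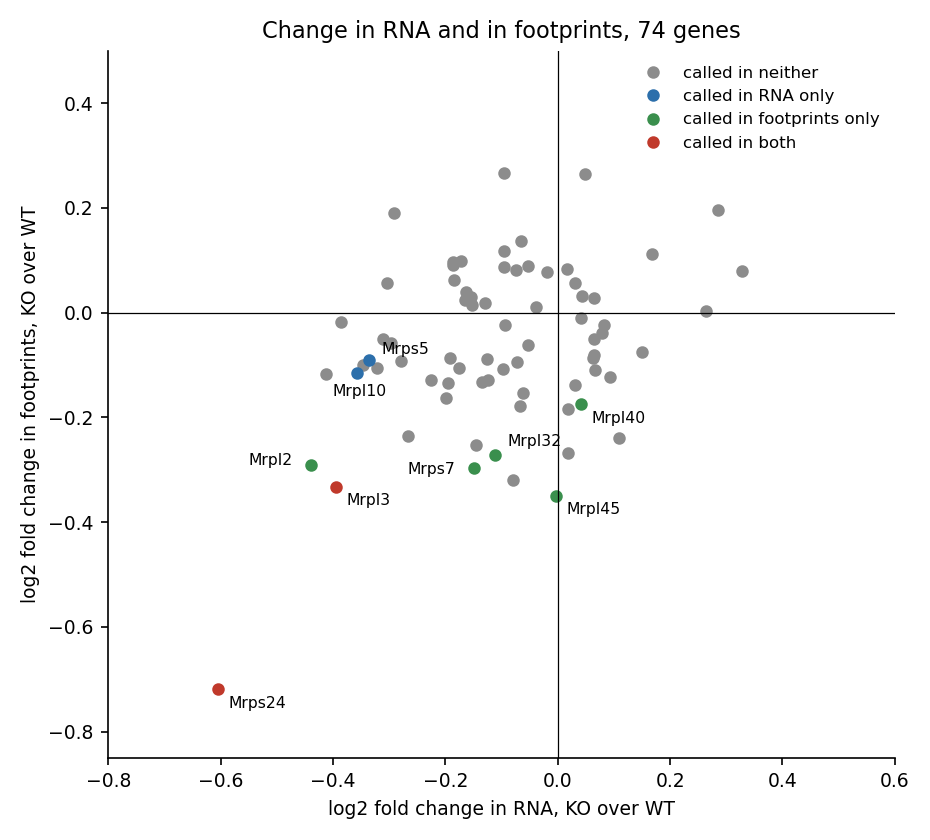
Log2 fold change of KO over WT in RNA (x axis) and in footprints (y axis) for the 74 genes tested in both, coloured by the assay in which edgeR called them at FDR under 0.05. Mrps24 stands at the lower left at -0.60 and -0.72, Mrpl3 at -0.39 and -0.33, and Mrpl45 near 0 in RNA with -0.35 in footprints.

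Whether footprints and RNA changed by different amounts was tested with an interaction term in 1 fit of all 12 libraries and 11854 genes. edgeR called 0 of the 74 genes, against 0.211% of all genes, and 5 of 74 had an unadjusted p under 0.05 (6.76%, against 14.0% of all genes). DESeq2 called 0 of 74 too, with 2 at an unadjusted p under 0.05. The median was 0.04, beside 0.01 for all genes. The highest values were those of Mrps27 (0.49, SE 0.17, edgeR FDR 0.237), Mrpl4 (0.37), Mrpl21 (0.37) and Mrpl14 (0.36). Mrps27, an RNA-binding protein of the small subunit, had 13.7, 12.1 and 13.8 CPM of RNA in WT and 10.4, 12.1 and 10.2 in KO, but footprints of 27.9, 34.2 and 30.3 in WT and 38.9, 31.4 and 36.1 in KO. Its RNA tended lower and its footprints higher, with overlap in footprints. The lowest values were those of Mrpl45 (-0.35, SE 0.13, edgeR FDR 0.263), Mrpl46 (-0.34), Mrps31 (-0.28) and Mrps33 (-0.26). For Mrps24 the interaction was -0.11 (SE 0.17, edgeR FDR 0.828), so no difference between its changes in RNA and footprints was detectable with these libraries.

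Within WT, footprints were compared with RNA gene by gene. Of the 74 genes 62 were higher in footprints and 5 lower at an edgeR FDR under 0.05, that is 83.8% and 6.76%, against 36.3% and 47.2% of all 11854 genes. The median log2 ratio was 0.96, a ratio of 1.94, beside -0.20 for all genes, and 68 of 74 lay above the median of all genes and 60.8% above its upper quartile of 0.69. The large subunit had a median of 0.99 and the small subunit of 0.93. The ratio depends on how many ribosomes an mRNA carries, but also on library scaling and on how much of a transcript is coding. The coding share was not used here, so the ratio is not a rate, and the order among genes may carry differences in that share. In the WT libraries 51.7% to 57.1% of RNA-seq counts lay in no annotated feature, against 5.36% to 6.39% of footprint counts. The effect of this on the ratio was not tested. With the RNA-seq and footprint libraries of the same number as a block the count stayed at 62 higher and 5 lower.

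Mrps28 had the highest ratio, 2.58 (SE 0.11): its WT libraries held 6.99, 8.09 and 9.64 CPM in RNA and 50.4, 49.3 and 49.3 in footprints. Mrps14 followed with 2.19, Mrpl41 with 2.15 and Mrpl46 with 2.14. At the other end Mrpl33, a small protein of the large subunit, had 59.5, 67.4 and 63.9 CPM in RNA but 14.4, 14.9 and 16.8 in footprints, a log2 ratio of -2.06 (SE 0.09). Mrpl51 had -1.03, Mrpl49 -0.50 and Mrps26 -0.49, and Mrps25 (-0.36) was the remaining gene called lower. These 5 stood apart from a family that was mostly high in footprints. In the compared families the median ratio was -1.51 for 71 tested cytosolic ribosomal protein genes, 6 higher and 55 lower, and 1.61 for 77 respiratory chain genes, 68 higher and 7 lower. Cytosolic ribosomal proteins have many processed pseudogene copies, and 13.1% to 20.5% of the counted reads of each library had several alignments and were not assigned to a gene, so the values of that family are uncertain.

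**Figure D5:**
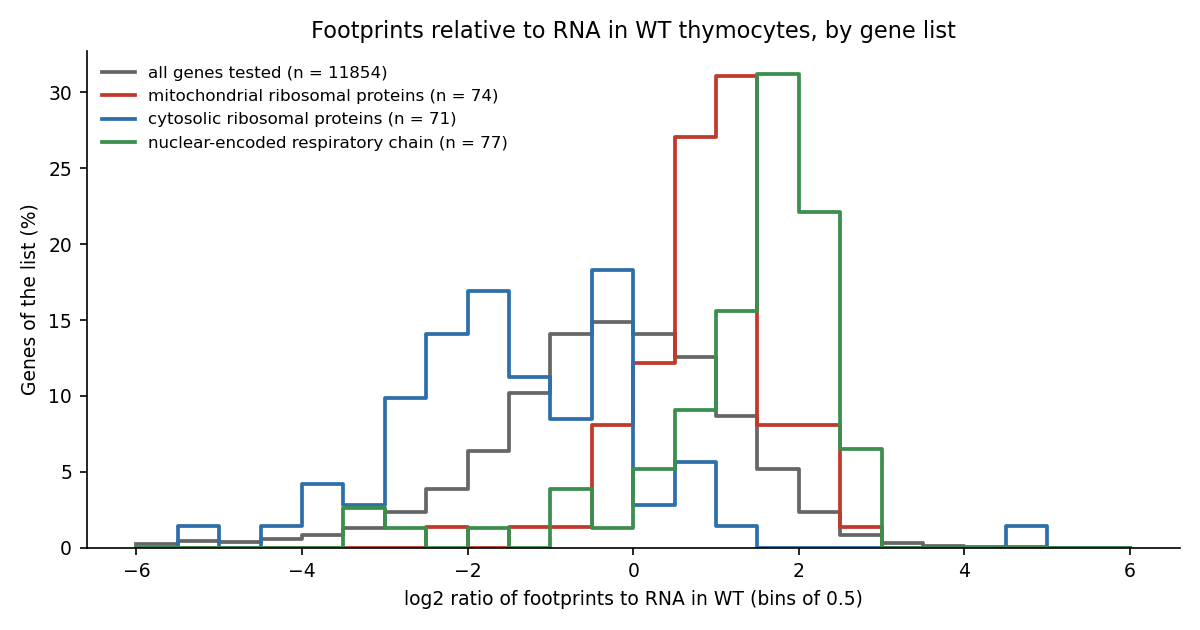
Share of genes (y axis, %) by log2 ratio of footprints to RNA in WT (x axis, bins of 0.5) for all 11854 genes tested and for 3 families. The mitochondrial ribosomal proteins (red) centre at 0.96, to the right of all genes (-0.20) and of the cytosolic ribosomal proteins (-1.51) and to the left of the respiratory chain genes (1.61).

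Genes that work with the mitochondrial ribosome were read from lists of its other proteins, its factors and its assembly. The 5 mitoribosomal proteins with other names, Dap3, Ptcd3, Aurkaip1, Chchd1 and Gadd45gip1, had 0 calls in either assay, by edgeR or DESeq2 and also at an unadjusted p under 0.05, with log2 fold changes from -0.10 to 0.21 in RNA and from -0.31 to 0.14 in footprints. Of 13 tested translation factors edgeR called 0 in RNA (0 at an unadjusted p under 0.05, and 0 by DESeq2), and 1, the elongation factor Gfm1, fell in footprints, from 80.8, 82.7 and 81.4 CPM to 73.8, 71.9 and 72.9 (-0.16, SE 0.03, edgeR FDR 0.0193). That is 7.69% of the factors, against 17.6% of all genes. Its 3 KO libraries were below all WT libraries.

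Of 30 tested assembly and rRNA modification factors 2 were called in RNA (6.67%, against 6.91% of all genes in both directions) and 6 in footprints (20%, against 17.6%), shares near the background. Mtg1 rose and Polrmt fell in RNA, while Mtg1, Ngrn and Mettl15 rose and Dhx30, Lrpprc and Slirp fell in footprints. Mtg1, a GTPase that acts late in assembly of the large subunit, had footprints of 11.8, 14.3 and 12.3 CPM in WT and 23.9, 19.8 and 23.3 in KO (log2 fold change 0.78, SE 0.11, edgeR FDR 0.00637), and its RNA rose by 0.51 (SE 0.10, edgeR FDR 0.0358). Ngrn, needed for the large-subunit rRNA, had 32.1, 29.7 and 28.9 CPM of footprints in WT and 40.1, 43.3 and 44.4 in KO (0.48, SE 0.06, edgeR FDR 0.00503), and its RNA did not separate (0.02). These 2 footprint calls held with the replicate block, at edgeR FDRs of 0.0282 and 0.0491. Polrmt, the mitochondrial RNA polymerase, had 27.7, 26.6 and 31.5 CPM of RNA in WT and 20.8, 21.8 and 17.7 in KO (-0.52, SE 0.11, edgeR FDR 0.0416). The RNA-binding partners Lrpprc (-0.18, edgeR FDR 0.0450) and Slirp (-0.31, edgeR FDR 0.0434), which protect mitochondrial mRNAs, and the helicase Dhx30 (-0.22, edgeR FDR 0.0446) fell in footprints, and the rRNA methyltransferase Mettl15 rose (0.42, edgeR FDR 0.0399). None of the calls on Gfm1, Polrmt, Lrpprc, Slirp, Dhx30, Mettl15 or on Mtg1 RNA held with the block.

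Among 9 tested regulators of mitochondrial gene expression, edgeR called 0 in RNA (1 at an unadjusted p under 0.05, and 0 by DESeq2), while Myc and Pprc1 fell in footprints (22.2%, against 17.6% of all genes in both directions). Myc, a transcription factor that drives growth genes, had 181, 181 and 183 CPM of footprints in WT and 160, 160 and 158 in KO (-0.19, SE 0.03, edgeR FDR 0.00917). Pprc1, a coactivator of the PGC family, had 51.5, 49.0 and 49.1 CPM in WT and 41.0, 43.1 and 43.0 in KO (-0.24, SE 0.04, edgeR FDR 0.0153). Both separated by genotype, and with the replicate block neither was called (edgeR FDR 0.290 and 0.277). Nrf1, Gabpa and Yy1, whose motifs are searched below, had footprint log2 fold changes of 0.09, -0.08 and -0.02 and were not called in either assay.

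The mitochondrial genome's own protein genes, the products of these ribosomes, were read with the limit that cycloheximide does not arrest mitochondrial ribosomes. Of 13 genes 7 were tested and edgeR called 0 in either assay, with 0 in RNA and 1 in footprints at an unadjusted p under 0.05. The medians were -0.18 in RNA and -0.20 in footprints. DESeq2 called 1 in footprints, mt-Nd6, which is encoded on the opposite strand to the others and had an edgeR log2 fold change of -0.36 (edgeR FDR 0.067). Their summed RNA was 1832, 1626 and 1199 CPM in WT and 1210, 1360 and 1654 in KO, so the libraries of a group varied widely and overlapped. The other 6 had mean levels of at most 0.127 CPM in any group. Of these mt-Nd4l, mt-Co2, mt-Atp6 and mt-Atp8 had 0 CPM in every library. Reads with several alignments were not assigned to a gene, and their part in these low counts was not tested. The low values are therefore not read as absent transcripts, and the sum rests almost wholly on the 7 tested genes.

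Promoters of the family were read for 5 short motifs of factors known to act on nuclear genes of mitochondria or on growth genes. RefSeq promoter windows of GRCm38.p6, from 250 bases before to 50 after the annotated start, were found by symbol for 66 of the 75 genes. The motifs were GCATGCGC (core of the NRF1 site), CCGGAAG (ETS factors such as GABP), AAGATGGCG (YY1), CACGTG (the E-box bound by MYC) and GGGCGG (SP1), each searched on both strands. In 2 of the 72 windows matches of 2 different motifs overlapped. Overlaps between matches of the same motif, as in Mrpl32, are not in that count. By gene, 12.1% of the family held the NRF1 core, against 3.05% of all 27025 genes with a window and 6.33% of the 9040 tested in RNA. The ETS motif was in 37.9%, against 9.93% and 21.9%, and the YY1 motif in 12.1%, against 1.64% and 3.90%. At least 1 of these 3 was in 35 genes (53.0%, against 29.3% of tested genes), and 6 genes held 2 or more (9.09%, against 2.74%). The E-box, at 7.58%, and the SP1 motif, at 50%, were no more frequent than in tested genes, at 11.9% and 68.8%. Cytosolic ribosomal protein genes held the ETS motif in 42.1%, the NRF1 core in 5.26% and the YY1 motif in 5.26%. Respiratory chain genes held them in 24.2%, 15.2% and 10.6%, so a YY1 share near that of the family is not particular to it. A match describes letters in the window and is not a measured binding site.

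The windows of 4 genes called lower are printed as examples. Mrps24 and Mrpl3 were called in both assays, Mrpl10 in RNA and Mrpl32 in footprints. Capitals mark the motif matches, on either strand. Mrps24 is on the minus strand at chr11:5707652-5707951 with the YY1 motif after its start and 2 SP1 matches before it. Mrpl3 is on the plus strand at chr9:105053018-105053317 with 1 ETS match. Mrpl10 is on the plus strand at chr11:97041332-97041631 with 1 NRF1 core. Mrpl32 is on the minus strand at chr13:14612988-14613287 with 4 NRF1 matches, the first of which overlap each other, and 1 SP1 match.
Mrps24: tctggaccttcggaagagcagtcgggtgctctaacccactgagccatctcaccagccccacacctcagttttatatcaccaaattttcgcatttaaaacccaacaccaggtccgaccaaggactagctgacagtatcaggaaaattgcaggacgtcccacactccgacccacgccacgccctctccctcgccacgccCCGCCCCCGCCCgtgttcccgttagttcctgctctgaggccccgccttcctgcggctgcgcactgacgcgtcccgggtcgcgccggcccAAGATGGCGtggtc
Mrpl3: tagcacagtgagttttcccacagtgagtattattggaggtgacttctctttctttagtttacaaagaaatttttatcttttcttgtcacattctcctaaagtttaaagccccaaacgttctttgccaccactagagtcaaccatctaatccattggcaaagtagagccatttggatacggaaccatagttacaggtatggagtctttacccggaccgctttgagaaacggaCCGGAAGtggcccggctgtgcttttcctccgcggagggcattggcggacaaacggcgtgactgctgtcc
Mrpl10: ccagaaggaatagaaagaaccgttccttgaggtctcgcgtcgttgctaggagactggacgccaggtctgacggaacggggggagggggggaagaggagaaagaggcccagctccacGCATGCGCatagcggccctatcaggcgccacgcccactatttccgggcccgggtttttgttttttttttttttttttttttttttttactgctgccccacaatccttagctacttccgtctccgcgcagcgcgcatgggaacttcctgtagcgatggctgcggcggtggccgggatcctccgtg
Mrpl32: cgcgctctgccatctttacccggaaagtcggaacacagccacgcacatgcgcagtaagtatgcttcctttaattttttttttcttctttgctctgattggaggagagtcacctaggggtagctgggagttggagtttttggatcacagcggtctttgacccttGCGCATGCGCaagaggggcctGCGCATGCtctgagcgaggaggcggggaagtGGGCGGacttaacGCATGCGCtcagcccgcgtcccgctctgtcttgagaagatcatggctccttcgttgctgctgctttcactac
No motif of the 5 is common to these 4 windows, which were picked as examples and do not stand for all called genes. Mrpl2, Mrpl40, Mrps5 and Mrps7, each called lower in 1 assay, all held the SP1 motif, as did 68.8% of tested genes. The window of Mrpl45, also called lower in footprints, held none of the 5.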

How the data were processed

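For each assay the authors deposited a table of whole-number read counts by Ensembl gene, which they named adjusted; what was adjusted is not stated. They also deposited their own comparison tables with log2 fold changes and p-values, of which 12 columns of per-library values were not used. FastQC, Bowtie2 2.5.1, STAR 2.7.10a, HTSeq 2.0.3 and DESeq2 1.40.2 are named, with no role, per the submitters' processing notes; the genome build, gene annotation and use of strand were not given in the sources used here. Rows that name no gene, 5 in each table, were left out: reads in genes made up 27.0% to 28.5% of RNA-seq counts and 72.3% to 73.1% of footprint counts.

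Each assay was fitted over all genes with edgeR 4.0.16 in R 4.3.3 (TMM, filterByExpr with a minimum count of 10, quasi-likelihood test, Benjamini-Hochberg FDR under 0.05). Each SE is the log2 fold change, without its sign, over the square root of the F statistic. The interaction used all 12 libraries, and the ratio in WT the 6 WT libraries. Tested on simulated data, the fits recovered 88.8% of 98 genes changed by 1 on the log2 scale in RNA-seq (13509 genes, 10 false calls), 90.7% of 97 in footprints (13379 genes, 9) and 75.0% of 100 for the interaction (11759 genes, 7). The simulated counts had no adjustment by replicate number and the same relative spread for every gene. The changes set were 1 and 2 on the log2 scale, larger than any KO change of a mitochondrial ribosomal gene. Recovery of changes as small as those was not tested, so the percentages do not show the power for them. The labels do not say how mice relate to libraries beyond 3 mice per genotype, so p-values measure the spread between these libraries.

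Genes named were every called gene, the 4 largest rises and falls per fit, the 4 highest and lowest ratios in WT, and proteins fixed by role; ranking footprints per coding length was not done because no lengths were used here, and Mrps36, fixed by role, fell outside the rule. The genes, lists and tests were chosen with earlier results of these data known. Promoter and microRNA sequences are from RefSeq, GRCm38.p6. Alternatives were RLE size factors, no low-count filter, DESeq2 1.42.0, the replicate block, an FDR under 0.1 and the omission of each library, and, added after seeing the data, no TMM scaling.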

Additional observations from a re-analysis of the deposited data

How the results depend on the processing

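Of 201 values under the alternatives for 19 called single-gene results, 132 stayed called and 69 were no longer called, and none changed sign. Of 568 values for 48 uncalled results, 547 kept sign and stayed uncalled, 2 were called without TMM scaling (Mrpl2 and Mrpl58 in RNA), and 19 had the other sign. These 19 were all RNA changes near 0, of Mrpl11, Mrpl40, Mrpl45, Mrps18c, Mrps30 and Mrps34, so those genes have no stable direction in RNA. In RNA the 4 called genes became 2 with no low-count filter, 0 with DESeq2 and 0 with the replicate block, and 0 to 1 when 1 library was left out, the 1 being Mrpl3 without WT replicate 3; RLE size factors kept the same 4. The median RNA log2 fold change moved from -0.10 to between -0.126 and -0.0946 with 1 library left out, where fewer samples are fitted, and to -0.168 without TMM scaling, an alternative added after seeing the data. Without that scaling the summed RNA difference went from -5.70% to -10.5%. With 1 library left out the summed differences were -6.0% to -5.16% in RNA and -4.67% to -3.59% in footprints. In footprints the 7 called genes became 2 with DESeq2, 1 with the replicate block, 12 at an FDR under 0.1 (10 lower and 2 higher) and 1 to 4 with 1 library left out; RLE kept the same 7, and no filter kept 6 of them. The cause of these changes was not tested. Over all genes the block lowered the calls from 943 to 110 in RNA and from 2376 to 408 in footprints. Same-numbered libraries deviate in opposite directions (correlations of -0.93 to -0.89 over all genes, no sample closest to its own number), so the numbers carry structure but not the shared deviation of a pair, and the block is given as an alternative. An adjustment by replicate number before deposit was not tested. The interaction had 0 calls among the 74 genes under every alternative run. The median ratio of footprints to RNA in WT, 0.96, ranged from 0.92 to 1.01 with 1 library left out. Read depth limits single genes: the smallest gene in RNA-seq had 118 reads over 6 libraries, and changes of uncalled genes carried SEs up to 0.26 in RNA and 0.17 in footprints.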
